A study of Zea mays with 48 samples.

Results

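The regions described here are the ZmCCA1-binding peaks to which the authors assigned no gene. They were taken as every entry of the 4 deposited peak lists with an empty gene field, and are called gene-free peaks below. They numbered 1348 of 10136 peaks, or 13.3% (95% Wilson interval 12.7% to 14.0%, which covers counting error only). B73 had 380 of 3364, Mo17 319 of 2102, BM 362 of 2796 and MB 287 of 1874. The remaining 8788 peaks carried a gene. By the study's account, genes of the filtered maize gene set within 10 kb were used. The lists nevertheless left some peaks over a gene end or within 10 kb past it without a gene, as described below.

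CCA1 is a MYB-type transcription factor of the plant circadian clock. In Arabidopsis it is most abundant around dawn and binds the evening element and the CCA1-binding site in the promoters of clock and output genes. Maize genes are islands among long stretches of transposable elements, so that a binding region can lie far from any annotated gene. Only read-pairs that mapped to a unique place were used for these peaks.

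Chromatin came from the aerial tissues of seedlings, collected 5 days after planting from a long-day light-dark cycle. There were 4 genotypes, the inbreds B73 and Mo17 and the F1 hybrids made from them in both directions, BM (B73 x Mo17) and MB (Mo17 x B73), each sampled at ZT3, ZT9 and ZT15, where ZT is hours after dawn. There were 2 biological replicates for each genotype and time point, giving 24 ChIP and 24 input libraries. The antibody was raised against the N-terminal MYB DNA-binding region of ZmCCA1 and, by the study's description, could recognise ZmCCA1b and a full-length ZmCCA1a. The tissue was whole aerial tissue with no cell type separated, and no genotype lacking ZmCCA1 was among the samples, so the signal of the antibody without its target was not measured.

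Each peak carried the authors' log2(ChIP/Input) at each time point, with the replicates already combined. No error can therefore be given for a single peak value, and the read depth at a peak is unknown, although the authors brought all libraries of a kind to a common depth. Comparisons between gene-free and assigned peaks were made within each list and tested over the 4 lists by an exact sign-flip permutation test (two-sided), whose smallest possible p is 0.125. No difference over the lists could therefore pass a threshold of 0.05, and the number of lists that show it is given with each. The lists are set in the same coordinates (maize B73 AGPv2): of 4321 genes named in them, 0 had coordinates that differed between lists.

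Gene-free peaks were weaker than assigned peaks in each genotype. The strength of a peak was taken as the highest of its 3 values of log2(ChIP/Input). Its median in gene-free peaks was 1.66 in B73 and 1.60 in Mo17, and 1.63 in BM and 1.49 in MB, against 1.97, 1.96, 2.02 and 1.95 in assigned peaks. The mean difference was -0.38 ± 0.06 (SD over 4 lists), with gene-free peaks lower in 4 of 4 lists (exact sign-flip p = 0.125, Benjamini-Hochberg adjusted p = 0.15 over 12 measures). The 2 classes differed most at the lower end. A strength under 1 was found in 17.1% of the gene-free peaks of B73, 23.5% of Mo17, 16.9% of BM and 21.3% of MB, whereas in assigned peaks this share ran from 0.37% in BM to 0.95% in Mo17. In all 4 lists, 262 gene-free peaks were under 1. Gene-free peaks were also narrower, with a median width of 939 bp in B73 and 906 bp in Mo17, and 964.5 bp in BM and 941 bp in MB against 1035.5, 993, 1049.5 and 979 bp (mean difference -76.6 ± 26.2 bp, lower in 4 of 4 lists, exact sign-flip p = 0.125). Among peaks with a strength of at least 2, the difference in strength was 0.03 (exact sign-flip p = 0.625) and the difference in width was -185 bp. This cut is made on strength itself and draws the strength medians of the 2 classes together, so it says little about a difference in strength.

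**Figure D1:**
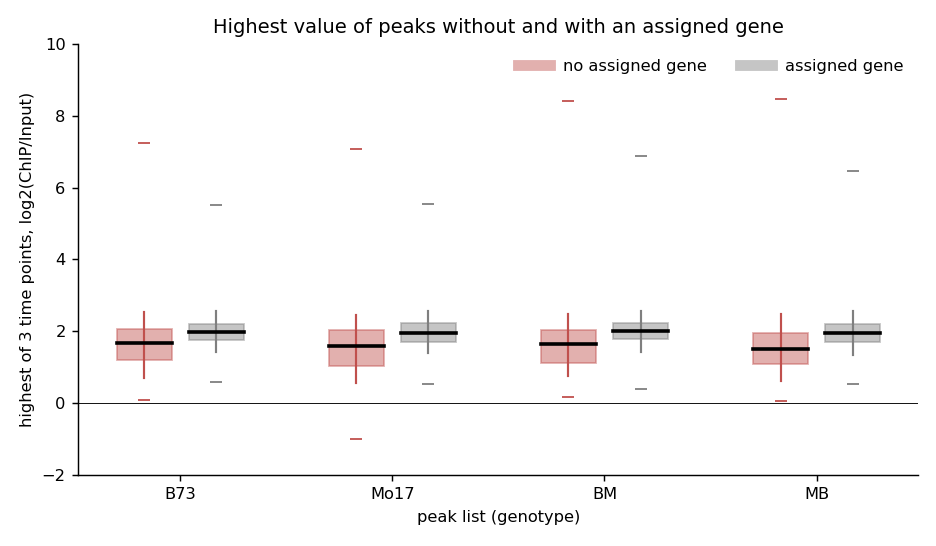
Strength of the peaks, the highest log2(ChIP/Input) over ZT3, ZT9 and ZT15 (y axis), in each genotype's list (x axis), for peaks without (red) and with (grey) an assigned gene. Boxes span the quartiles with the median as a black line, vertical lines run from the 5th to the 95th percentile, and dashes mark the lowest and highest peak. Gene-free peaks have lower medians (1.49 to 1.66 against 1.95 to 2.02), and they also hold the highest value of every list.

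The strongest peak of every list had no gene. It lay at chr1:62370845-62371897, with the same edges in the 4 lists and a width of 1052 bp. At ZT3, ZT9 and ZT15, its log2(ChIP/Input) was 7.25, 6.47 and 6.30 in B73 and 7.08, 6.94 and 5.78 in Mo17. In the hybrids the corresponding values were 8.40, 6.39 and 4.64 in BM and 8.46, 6.52 and 6.28 in MB. Both hybrids were above both inbreds at ZT3, and BM was lowest of the 4 genotypes at ZT15. The highest assigned peak reached 5.53 in B73 and 5.54 in Mo17, and 6.87 in BM and 6.46 in MB. The nearest gene named in any list, GRMZM2G057674, lay 26166 bp away, with the peak upstream of it. No role is given here for this gene or for the other neighbouring genes, because the files and the study do not annotate them.

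The second strongest gene-free peak of every list was also common to all genotypes. It lay at chr6:67710906-67713206, where the edges differed by at most 1 bp between lists. The values at ZT3, ZT9 and ZT15 were 3.63, 3.27 and 3.53 in B73 and 3.53, 3.84 and 3.96 in Mo17, and 3.83, 2.98 and 2.52 in BM and 3.75, 2.98 and 3.10 in MB. At ZT3 the genotypes were close, and at ZT9 and ZT15 both hybrids were below both inbreds. GRMZM2G173858, the nearest listed gene, was 52269 bp away.

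Peaks were grouped into loci, connected sets of peaks of any list with 1 bp or more in common. At 81 loci each of the 4 lists had a peak and none was assigned a gene. After the 2 loci above, the next 4 by mean strength over the lists were chr1:93982075-93982745 (3.35 ± 0.12, SD over 4 lists), chr8:45932124-45932909 (3.12 ± 0.24), chr1:93983468-93984243 (2.71 ± 0.32) and chr7:92350147-92350618 (2.49 ± 0.30). These 4 were far from listed genes, the nearest being 475910 bp, 1376186 bp, 477303 bp and 743301 bp away. The lowest 2 of the 81 were chr1:234474178-234475377, with a strength of 0.13, 0.18, 0.16 and 0.15 in B73, Mo17, BM and MB, and chr1:419408-420347, with 0.07, 0.69, 0.39 and 0.05. Both were in all lists, although at the first of them ChIP and input were nearly equal in the deposited values.

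Gene-free peaks were less often found in a second genotype, and when they were, they were more often found in all. A peak overlapping a peak of at least 1 other list made up 47.9% of the gene-free peaks of B73, 52.0% of Mo17, 49.7% of BM and 47.4% of MB, against 50.8%, 62.1%, 56.6% and 65.0% of assigned peaks (mean difference -9.36 ± 6.20 percentage points, lower in 4 of 4 lists, exact sign-flip p = 0.125). With a reciprocal overlap of 50% this difference was -0.99 points (exact sign-flip p = 0.5). Overlap with all 3 other lists was found for 22.9%, 29.2%, 23.2% and 29.6% of gene-free peaks in the same order, against 13.4%, 21.4%, 16.2% and 23.2% (7.67 ± 1.31 points, higher in 4 of 4 lists, exact sign-flip p = 0.125), and this difference was 0.03 points without the 5 dense regions described below. In B73, Mo17, BM and MB, 182, 166, 180 and 136 gene-free peaks overlapped a peak of another list. Of these, 7, 6, 8 and 3 overlapped a peak that another list had assigned to a gene. Since a gene is assigned by position, overlapping peaks share their class largely by the rule of assignment.

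Counted as loci, 884 were gene-free in every list that held them, and 684 of these were in 1 list, 73 in 2, 46 in 3 and 81 in 4. Among loci with a gene the numbers were 3756, 998, 404 and 384. A further 17 loci held both kinds of peak. Loci of a single list numbered 198 in B73 and 153 in Mo17, and 182 in BM and 151 in MB. Of the gene-free loci in 2 lists, 23 joined B73 and BM, 17 Mo17 and BM, 12 the 2 inbreds, 9 B73 and MB, 7 the 2 hybrids, and 5 Mo17 and MB. The lists differ in size, and the same counts were not made for assigned loci. Overlaps of assigned peaks, with sites of further lists included, were also most numerous between B73 and BM (1067 of 2984 peaks of B73). The leading pair is thus not particular to gene-free loci.

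The hybrid lists were also sorted by the inbred peaks that they overlapped. Of the gene-free peaks of BM, 53.0% overlapped no peak of B73 or Mo17, 28.5% overlapped peaks of both, 10.8% of B73 alone and 7.73% of Mo17 alone. In MB the shares were 55.7%, 32.4%, 8.01% and 3.83%. Among assigned peaks the shares were 48.2%, 22.3%, 21.2% and 8.38% in BM, and 42.9%, 28.0%, 20.2% and 8.88% in MB. In both hybrids the share tied to B73 alone was thus lower for gene-free peaks, as was that tied to Mo17 alone. The shares for neither inbred and for both inbreds were higher. Without the dense regions described below, gene-free peaks overlapped both inbreds in 21.4% of BM and 24.9% of MB, which is below the assigned shares. With 2 hybrid lists these differences could not be tested.

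The relation between strength and sharing ran in opposite directions in the 2 classes. This comparison was added after the data were seen. Assigned peaks in all lists were stronger than assigned peaks of a single list by 0.19 in B73 and 0.40 in Mo17, and 0.19 in BM and 0.28 in MB (differences of median log2(ChIP/Input)). Gene-free peaks in all lists were weaker than those of a single list, with differences of -0.41, -0.50, -0.36 and -0.28 in the same order. Of gene-free peaks in all lists, 39.1% in B73 and 44.1% in Mo17, and 32.1% in BM and 34.1% in MB had a strength under 1. The difference between the classes was -0.65 ± 0.17 (SD over 4 lists, exact sign-flip p = 0.125). It reversed to 0.14 ± 0.04 (exact sign-flip p = 0.125) without the peaks of 5 dense regions, described next.

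**Figure D2:**
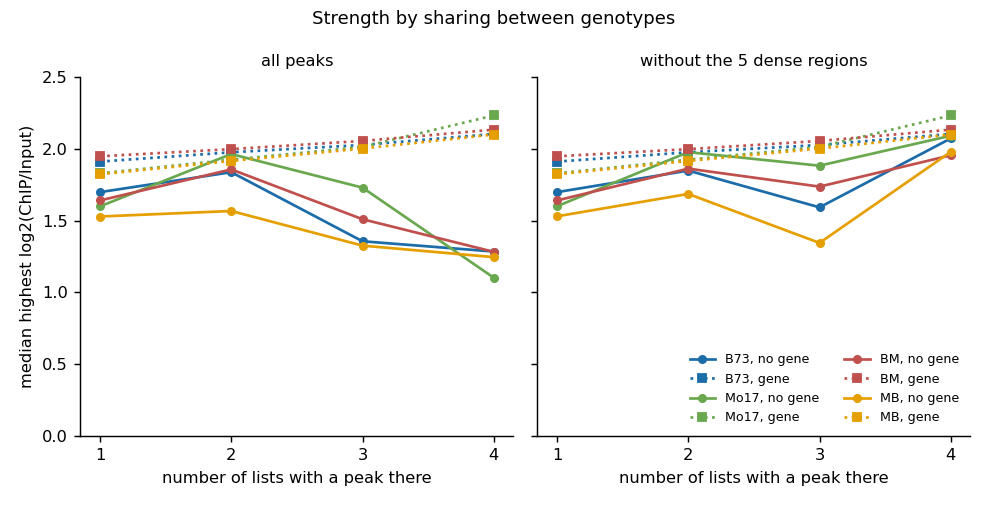
Median strength, the highest log2(ChIP/Input) over the time points (y axis), of peaks that lie in 1, 2, 3 or 4 of the lists (x axis), for each genotype, without (solid lines) and with (dotted lines) an assigned gene. With all peaks (left) the solid lines end between 1.10 and 1.28 at 4 lists. Without the 5 dense regions (right) they end between 1.96 and 2.09.

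Where a gene-free peak had a close neighbour, this was mostly another gene-free peak. The share of peaks with a neighbour within 10 kb in the same list was similar in the 2 classes, at 31.1% and 33.4% in B73, 32.6% and 32.5% in Mo17, 32.6% and 34.8% in BM, and 31.0% and 27.5% in MB, gene-free peaks first (mean difference -0.27 ± 2.74 points, exact sign-flip p = 1). With only peaks of strength 1.5 or more the difference was -11.1 points, lower in 4 of 4 lists (exact sign-flip p = 0.125). The neighbour was itself gene-free for 85.6% of such gene-free peaks in B73 and 85.6% in Mo17, and for 79.7% in BM and 85.4% in MB. For assigned peaks it was gene-free in 1.80% to 2.95% of cases. Since a gene is assigned by distance, neighbouring peaks share their class in part by the rule of assignment. When gene-free peaks were joined at 10 kb within a list, 277 of 380 stood alone in B73 and 228 of 319 in Mo17, as did 268 of 362 in BM and 210 of 287 in MB. The largest groups held 15, 13, 10 and 13 peaks in the same order.

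The gene-free peaks of all lists were also joined at 10 kb, and 5 regions held at least 5 peaks in some list. These regions held 166 peaks, or 12.3% of all gene-free peaks. They held 104 of the 262 gene-free peaks with a strength under 1 (39.7%) and 133 of the 349 gene-free peaks in all lists (38.1%). Strength in them ran from 0.13 to 1.49 with a median of 0.90.

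The largest region was chr1:234464876-234534009, with 15 gene-free peaks in B73 and 14 in Mo17, and 13 in each hybrid. Its peaks covered 53.2%, 35.6%, 43.2% and 44.6% of the 69133 bp in the same order. Here the medians of log2(ChIP/Input) for ZT3, ZT9 and ZT15 were 0.84, 0.41 and 0.69 in B73 and 0.72, 0.54 and 0.57 in Mo17, and 1.003, 0.60 and 0.48 in BM and 0.89, 0.56 and 0.53 in MB. ZT3 was the highest time point for 14 of 15, 10 of 14, 12 of 13 and 12 of 13 peaks. The nearest listed gene, GRMZM2G386294, lay 10036 bp from the region, which is upstream of it, just past the distance of assignment, and 3 peaks assigned to a gene reached into the region.

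The second region, chr4:172377889-172419480, held 12, 13, 10 and 9 gene-free peaks in B73, Mo17, BM and MB over 41591 bp. These covered 56.9%, 51.6%, 71.2% and 72.2% of it. Median values at ZT3, ZT9 and ZT15 were 0.79, 0.38 and 0.73 in B73 and 0.69, 0.43 and 0.48 in Mo17, and 0.96, 0.57 and 0.40 in BM and 0.98, 0.52 and 0.54 in MB. GRMZM2G027075 lay 10780 bp away. All 7 loci of this region were present in the 4 lists, which was not so in any of the other 4 regions.

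A pair of regions lay close together on chromosome 4, at chr4:225141662-225173407 and chr4:225085663-225110712. The first held 6, 11, 7 and 6 peaks in B73, Mo17, BM and MB, and the other 4, 5, 5 and 7. Their strength reached at most 1.48 and 1.49, with medians of 1.06 and 1.10. No listed gene was nearer than 85751 bp to the first or 148446 bp to the other. The fifth region, chr7:129594079-129612889, was added after its values were seen. It had 4, 4, 5 and 3 peaks and a median strength of 0.71, and 15 of its 16 peaks were under 1.

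**Figure D3:**
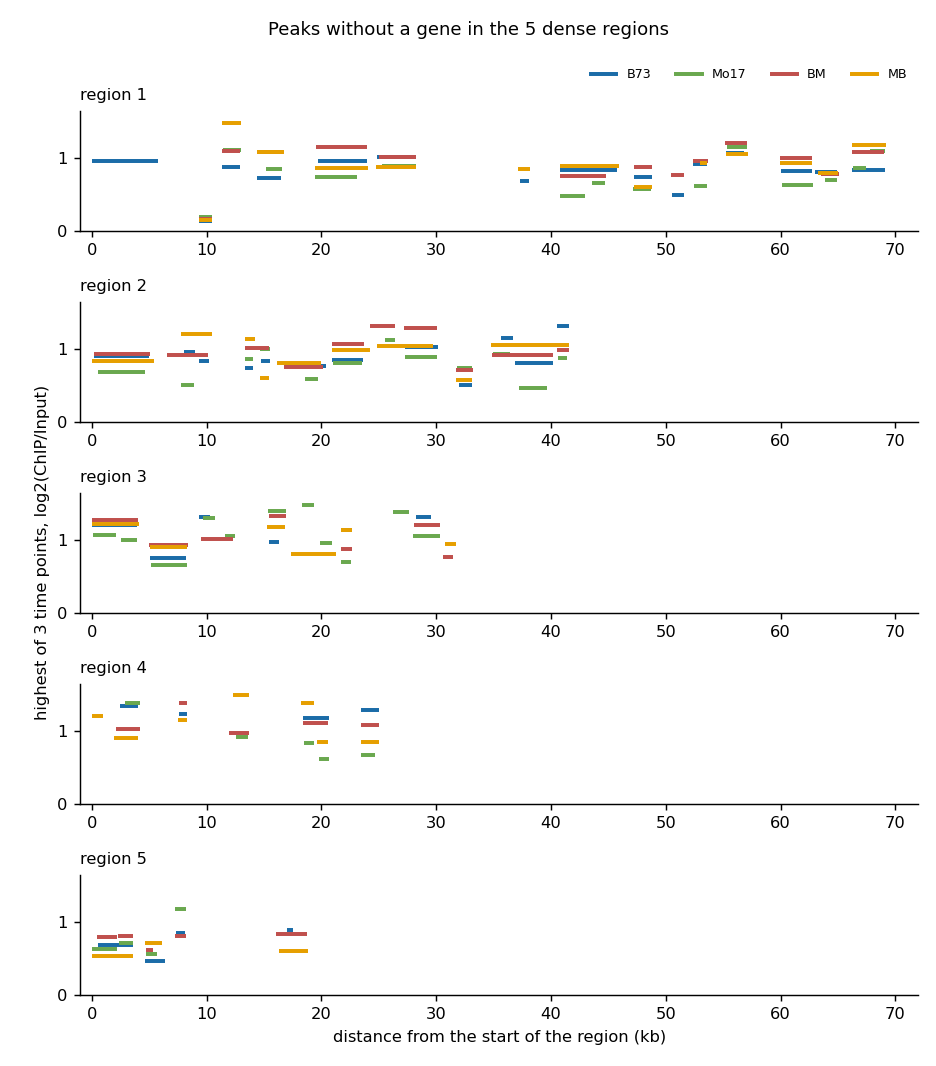
Gene-free peaks in the 5 dense regions, drawn as bars over their extent (x axis, kb from the start of the region) at the height of their highest log2(ChIP/Input) (y axis), coloured by genotype. Bars of different genotypes lie over each other at most places, and all lie between 0.13 and 1.49.

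Without the 166 peaks of the dense regions, several comparisons changed. The share of gene-free peaks with a neighbour within 10 kb fell to 22.7% in B73 and 20.96% in Mo17, and 24.2% in BM and 20.9% in MB, which was lower than in assigned peaks in 4 of 4 lists (-9.82 points, exact sign-flip p = 0.125). The regions were chosen for closely spaced gene-free peaks, and no assigned peak was left out. This fall thus follows from the choice, and the difference with its p is no result on clustering. The share in all lists became 15.9%, 20.2%, 16.5% and 21.7%, with a mean difference of 0.03 points from assigned peaks (exact sign-flip p = 1). For the share in any other list the difference widened to -16.4 points. The difference in strength remained, at -0.26 (exact sign-flip p = 0.125), as did the excess of peaks under 1, at 12.9 points, and both were in the same direction in 4 of 4 lists.

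Gene-free peaks were unevenly spread over the 10 chromosomes, and the dense regions made up part of this. Over all lists they were 18.7% of the peaks on chromosome 4 (16.5% to 21.1%), 17.2% on chromosome 7 (14.7% to 19.99%) and 15.7% on chromosome 8 (13.4% to 18.4%). The lowest share was 10.3% on chromosome 9 (8.65% to 12.3%). These Wilson intervals cover counting error only and count a locus once for each list that holds it, which makes them too narrow. Outside the dense regions chromosome 4 had 10.9%, chromosome 1 11.2% and chromosome 7 15.4%. Chromosome 4 ranged from 15.3% in B73 to 24.1% in Mo17, and chromosome 10 from 10.1% in B73 to 20.95% in MB. The surroundings of gene-free peaks held fewer listed genes. Within 500 kb of a gene-free peak the median was 2 listed genes in each of the 4 lists, against 3 around assigned peaks with their own gene left out (exact sign-flip p = 0.125). Within 250 kb the medians did not differ in the mean over lists (difference 0). Listed genes are those that some peak was assigned to, so this comparison is in part set by the choice of peaks.

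Over the day, gene-free peaks had lower values than assigned peaks at every time point. For ZT3, ZT9 and ZT15, the medians of log2(ChIP/Input) were 1.13, 0.98 and 0.92 in B73 and 0.88, 0.89 and 0.84 in Mo17, and 1.15, 0.88 and 0.62 in BM and 0.96, 0.68 and 0.64 in MB. In assigned peaks they were 1.51, 1.60 and 1.36 in B73 and 1.41, 1.74 and 1.22 in Mo17, and 1.84, 1.49 and 0.84 in BM and 1.61, 1.51 and 0.99 in MB. In the inbreds the gene-free medians lay close together, and in the hybrids they fell from ZT3 to ZT15. The gap to assigned peaks was -0.56 ± 0.14 for ZT3, -0.73 ± 0.13 for ZT9 and -0.35 ± 0.09 for ZT15 (SD over 4 lists, lower in 4 of 4 lists, exact sign-flip p = 0.125 for each). With only peaks of strength 1.5 or more, the gap at ZT15 turned to 0.16 and those at ZT3 and ZT9 shrank to -0.09 and -0.09. The median range of a peak over the day was 1.01, 0.98, 1.17 and 1.22 in B73, Mo17, BM and MB, against 0.99, 1.05, 1.28 and 1.17 in assigned peaks, with no common direction (exact sign-flip p = 0.5).

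Phase was taken as the time point at which a peak had its highest value. Among gene-free peaks, ZT9 was the phase of 24.7% in B73 and 30.4% in Mo17, and 27.3% in BM and 27.5% in MB, and among assigned peaks of 39.4%, 51.6%, 31.6% and 36.4%. A pattern with ZT9 as the lowest point was the most common of the 4 orders in the gene-free peaks of B73 (39.7%), Mo17 (40.1%) and MB (36.2%), and in BM it came second (28.7%). In assigned peaks this pattern made up 27.3%, 19.3%, 18.0% and 27.2% in the same order. A steady fall from ZT3 to ZT15 was found in 21.1% of gene-free peaks in B73 and 15.0% in Mo17, and in 37.8% in BM and 25.4% in MB. A steady rise was least common, at 6.08% in BM to 14.5% in B73. The highest value led the next by a median of 0.55, 0.50, 0.76 and 0.65 in B73, Mo17, BM and MB.

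The question of the study, whether binding in the hybrids shifts in time, was then put to the gene-free peaks. ZT3 was the phase of 46.8% in B73 and 40.1% in Mo17, and of 58.0% in BM and 52.3% in MB. Pooled, this was 360 of 649 peaks in the hybrids (55.5%) against 306 of 699 in the inbreds (43.8%), or 11.7 points more. At ZT15 the shares were 17.1% and 28.9%, a difference of -11.8 points, and at ZT9 27.4% and 27.3%. Peaks are not biological replicates, and many are the same loci in several lists. Tested over lists (the 2 hybrids against the 2 inbreds), the exact permutation p was 0.333 at ZT3 and at ZT15, the smallest that this design can give, and 1 at ZT9. The same differences in assigned peaks were 27.5 points for ZT3, -10.5 points for ZT9 and -17.0 points for ZT15. Whether the 2 classes differ in this was not tested.

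As deposited, the hybrid lists had a larger share of gene-free peaks with ZT3 as phase. Set against all peaks of the same list, they had a smaller one. Over all peaks of a list, the median at ZT3 minus the mean of the medians at ZT9 and ZT15 was 0.03 in B73 and -0.09 in Mo17, and 0.66 in BM and 0.32 in MB, a mean excess of 0.52 in the hybrids. When each time point was centred on its median over all peaks of its list, the hybrid excess of gene-free peaks at ZT3 reversed to -10.7 points and that at ZT15 to 9.13 points. Most peaks were assigned (8788 of 10136 over all lists), so centring sets gene-free peaks against a mainly assigned reference. The reversed sign describes their shift relative to that reference, not the direction of the deposited values. After centring, ZT3 was the phase of 40.5% in B73 and 36.1% in Mo17, and of 25.97% in BM and 29.97% in MB, so that both hybrids were below both inbreds (exact permutation p over lists 0.333, again the smallest possible).

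At the 81 gene-free loci in all lists the same places could be compared between genotypes. Their strength was ordered alike in the lists, with Pearson's r between 0.94 and 0.97 and Spearman's rho between 0.87 and 0.91 for the 6 pairs of lists. At the 384 assigned loci r lay between 0.65 and 0.80 and rho between 0.35 and 0.54. These are descriptions over loci, which share libraries within a list, and the gene-free loci spread over a wider range of strength. Of the 81 loci, 32 had a mean strength under 1, 19 of them in dense regions, and 27 had one of 2 or more, none of them in dense regions. Of the assigned loci 2 of 384 were under 1. The median SD of strength over the 4 lists was 0.18 for gene-free and 0.23 for assigned loci. At 7 gene-free loci the peak edges of the 4 lists agreed within 10 bp.

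**Figure D4:**
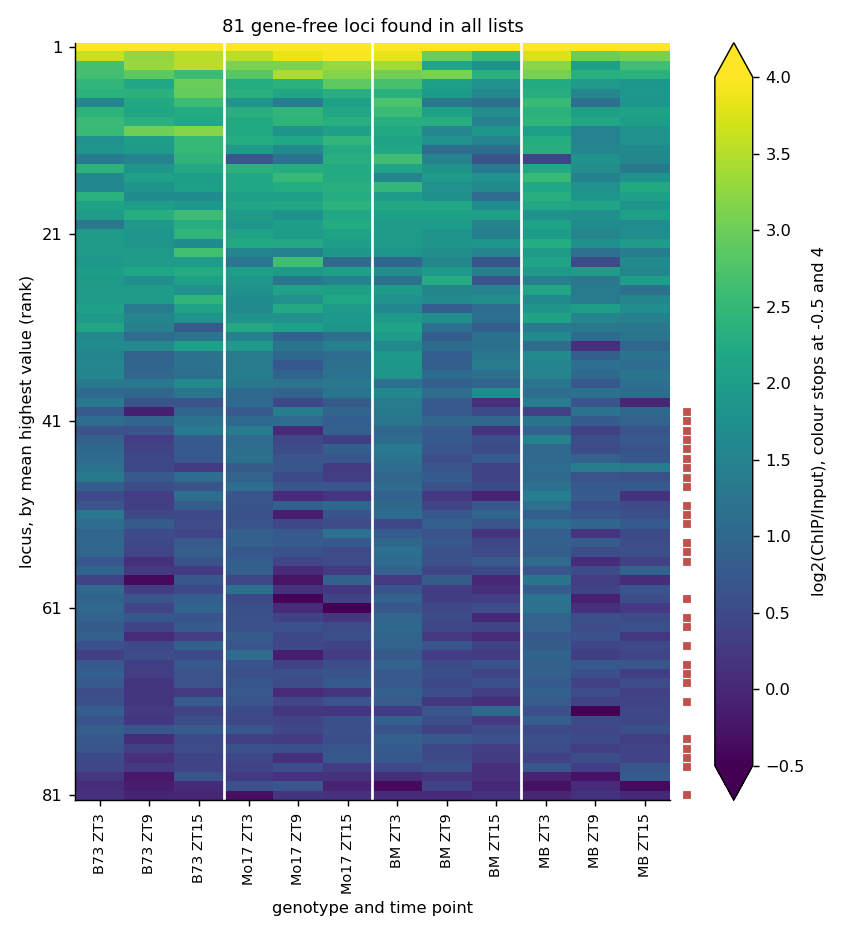
log2(ChIP/Input) at the 81 gene-free loci found in all lists (rows, ordered by mean strength), by genotype and time point (columns), with the highest value where a list has several peaks. Colours stop at -0.5 and 4, and red squares on the right mark loci in dense regions, none of which is among the 27 loci with a mean strength of 2 or more.

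Where a list had more than 1 peak at a locus, as at 14 of the 81 loci, the highest value at each time point was used, which can join values of different peaks. For each locus the mean of the values at ZT9 and ZT15 was subtracted from that at ZT3, and this contrast was compared between genotypes. Both hybrids exceeded both inbreds at 39 of the 81 gene-free loci (48.1%), and both were below at 6 (7.41%). Over all 471 loci in 4 lists, 60.9% had both hybrids above and 2.76% had both below, so that gene-free loci lay below the background in the first share and above it in the second. With the values of the strongest peak of each list instead, a choice made after the data were seen, the numbers were 39 and 5. With values centred on the list medians, both hybrids were above at 6 gene-free loci and below at 36. The median difference, hybrid mean minus inbred mean, was 0.25 as deposited and -0.27 after centring. ZT3 was the phase in both hybrids at 58 of the 81 loci, of which 24 also had it in both inbreds, 23 in 1 inbred and 11 in neither. These were 71.6%, 29.6%, 28.4% and 13.6% of the gene-free loci, against 61.8%, 10.6%, 24.0% and 27.2% of all 471 loci. The share with ZT3 in the hybrids alone was thus below the background and that with ZT3 in all 4 genotypes above it. The reverse, ZT3 in both inbreds and in neither hybrid, was found at 0 gene-free loci and at 3 of all loci.

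The 3 largest differences were at the strongest locus of chromosome 1 (1.68), at chr5:74634259-74634929 (1.63) and at chr1:93982075-93982745 (1.54). On chromosome 5, the values at ZT3, ZT9 and ZT15 were 1.57, 2.24 and 2.58 in B73 and 1.84, 1.38 and 2.07 in Mo17, and 2.73, 1.31 and 1.16 in BM and 2.56, 1.15 and 1.87 in MB. Both inbreds were highest at ZT15 and both hybrids at ZT3. At the chromosome 1 locus, they were 2.68, 3.31 and 3.51 in B73 and 3.12, 3.11 and 3.30 in Mo17, and 3.37, 2.14 and 1.81 in BM and 3.22, 2.06 and 2.62 in MB, so that inbreds and hybrids differed in the same manner. These 3 loci kept a positive difference after centring, at 1.16, 1.11 and 1.02.

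The 2 most negative differences were at chr1:419408-420347 (-0.56) and chr8:139016671-139020763 (-0.54). The first was the weak locus described above, with all values between -0.39 and 0.69. The second rests on how its peaks were merged, since B73 had 2 peaks there. The B73 peak at chr8:139016671-139019112, which the hybrid peaks lie within, had 1.11, 1.70 and 2.04 at ZT3, ZT9 and ZT15, and that at chr8:139019520-139020763, which no hybrid peak touches, had 1.95, 1.38 and 1.63. The values were 1.87, 1.27 and 1.48 in Mo17, 1.18, 2.29 and 0.68 in BM, and 1.44, 1.29 and 2.00 in MB. The contrast was -0.76 at the first B73 peak and 0.45 at the other, against 0.49 in Mo17, -0.31 in BM and -0.20 in MB, so that with the first peak B73 was below both hybrids and the hybrids were not both below the inbreds.

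Most gene-free peaks lay far from the genes that the lists name, and those within 10 kb were at or beyond the 3′ end, which the choice of peaks leaves as the only close position. The genes named in any of the 4 lists served as the reference, which are targets only, so the nearest gene in the genome is not known from these files. Of the 1348 peaks, 1222 (90.7%) were more than 10 kb from a listed gene and 779 (57.8%) more than 100 kb, with a median distance of 150492 bp. None lay within 10 kb upstream of a listed gene, and the nearest upstream peak was 10021 bp away. This follows from the choice of peaks, since a peak there would have been given the gene, and is no result. On the downstream side 91 peaks (6.75%) lay within 10 kb of the end of a listed gene, 57 within 5 kb, 42 within 2 kb and 28 within 1 kb. By list, those within 10 kb were 26 in B73 and 19 in Mo17, and 27 in BM and 19 in MB. In the next 10 kb outward, 32 peaks were downstream and 63 upstream. In 64 of the 91 cases the peak's own list named the gene through another peak.

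**Figure D5:**
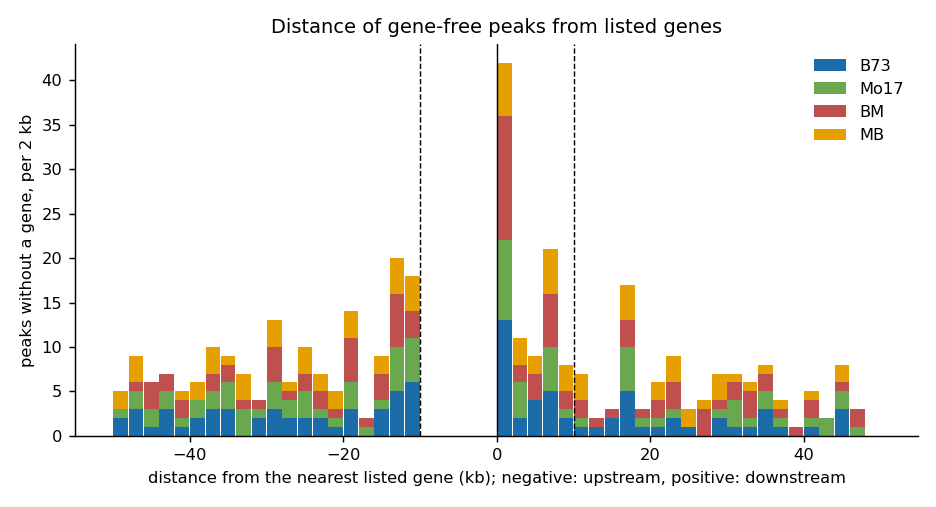
Number of gene-free peaks in bins of 2 kb (y axis) by distance from the nearest listed gene (x axis, kb, negative upstream and positive downstream by the gene's strand), stacked by genotype, with dashed lines at 10 kb. No peak lies in the 10 kb upstream, where a gene would have been assigned, and the first bin downstream holds 42 peaks.

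A further 35 gene-free peaks overlapped a listed gene, 10 in B73 and 6 in Mo17, and 11 in BM and 8 in MB. All 35 covered the end of the gene, 0 covered its start and 0 lay within it. They belonged to 29 loci at 29 genes, and 12 of them had the gene named in their own list. The part of such a peak outside the gene had a median of 25.8% of its width. No assigned peak covered only the 3′ end of its gene. Gene-free peaks at gene ends were thus left without a gene even where they overlapped a listed one.

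Gene-free peaks at or just beyond gene ends had a median strength near that of assigned peaks. The median strength was 1.92 for the 35 that overlapped and 1.97 for the 91 within 10 kb downstream, and 0 of these 126 were under 1. Their lowest value was 1.13. Of the downstream peaks, 39 of 91 were in all lists. Outside these 126 and the dense regions, 1056 peaks remained, with a median strength of 1.68, of which 158 were under 1 and 60.4% were in a single list. In the downstream peaks the medians for ZT3, ZT9 and ZT15 were 1.92, 1.71 and 1.54 in B73 and 1.82, 1.89 and 1.89 in Mo17, and 1.501, 1.53 and 1.11 in BM and 1.91, 1.36 and 1.40 in MB. At ZT15 both hybrids were below both inbreds, as they were over all peaks of the lists. Over all peaks the ZT15 medians were 0.82 in BM and 0.95 in MB, against 1.33 in B73 and 1.17 in Mo17.

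The peak nearest to a gene end was at chr2:201131704-201132779 in B73, 14 bp past GRMZM2G181158, with 1.24, 0.78 and 1.66 at ZT3, ZT9 and ZT15. It was followed by a B73 peak 99 bp past GRMZM2G081829 on chromosome 4, found in that list alone, with 2.00, 1.71 and 0.33. A Mo17 peak 131 bp past GRMZM5G840645 on chromosome 9 had 1.34, 2.06 and 1.49. These first 3 peaks had their highest values at 3 different time points. The next 5 loci lay 229 bp past GRMZM2G127824, 391 bp past GRMZM2G000749, 444 bp past GRMZM5G813795, 445 bp past GRMZM2G493027 and 467 bp past GRMZM2G023418, and their strength ran from 1.69 to 2.25. Those at GRMZM5G813795 (chr5:142026692-142027605) and GRMZM2G493027 (chr4:205258120-205259171) were in all lists and those at the other 3 genes in a single list.

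Of the peaks over a gene end, the 3 with the longest overlap are given, a choice made after the values were seen because all overlaps have a distance of 0. The BM peak at chr5:6574883-6578134 shared 2799 bp with GRMZM2G089696 and had 1.31, 1.25 and 0.45 at ZT3, ZT9 and ZT15. A BM peak on chromosome 3 shared 2050 bp with GRMZM2G386991 and had 1.82, 1.23 and 1.42. A B73 peak on chromosome 7 shared 1733 bp with GRMZM2G048257 and had 1.32, 2.07 and 1.42, and its locus was in all lists. Both BM peaks were highest at ZT3 and the B73 peak at ZT9. The peaks lie at different loci, so this does not compare the genotypes.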

How the data were processed

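The authors aligned trimmed reads with Bowtie 2, those of B73 against B73 AGPv2, those of Mo17 against a B73-guided Mo17 assembly, and those of the hybrids against both, keeping the better alignment. Concordant unique pairs without duplicates were down-sampled to a common depth, peaks were called with MACS (version 2.0.1 per the labels) against input at a p-value cutoff of 0.001, peaks overlapping in both replicates were kept, and time points were merged per genotype. The deposited values are log2(ChIP/Input), made by the authors, and were used as deposited. How the replicates were combined, and how positions in the Mo17 assembly were placed in B73 coordinates, is not described. The depth behind a peak is unknown.

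The labels placed each of the 48 libraries, and the file names and columns each list with its genotype. The peaks and lists of comparisons were chosen with earlier results of these data known. Gene-free peaks, the median of a list and the exact sign-flip and permutation tests are as given in the text, and functions were tested on simulated lists. Fisher's exact test of the pooled phase counts was also run, but it counts peaks as replicates and its p-values are not given. The regions named were the strongest 2 per list, the 6 strongest and 2 weakest loci in all lists, the 3 largest and 2 smallest hybrid minus inbred differences, the 8 nearest downstream of a gene, the 4 densest regions and 3 over a gene. Alternatives were each list left out, minimum strengths of 1.5 or 2, the mean of the time points, only upstream assigned peaks, omission of peaks assigned elsewhere, other windows, a reciprocal overlap of 50%, centring, a lead of 0.5, and omission of ZT15. Omission of the dense regions and use of the strongest peak per list at a locus were chosen after seeing the data. Sequences and motifs were not analysed here. Python 3.11.15, numpy 2.4.6, pandas 2.3.3, scipy 1.17.1 and matplotlib 3.10.9 were used.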

Additional observations from a re-analysis of the deposited data

Results flagged for a closer look

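At 5 of the gene-free loci named above, with the highest value per time point where a list had several peaks, the contrast of ZT3 with the mean of the later time points had 1 sign in both inbreds and the other sign in both hybrids. At chr1:93982075-93982745 it was -0.73 in B73 and -0.09 in Mo17, and 1.39 in BM and 0.87 in MB, a hybrid minus inbred difference of 1.54. At its neighbour chr1:93983468-93984243 it was -0.14, -0.38, 0.78 and 0.33 in the same order, a difference of 0.81. At chr8:45932124-45932909 it was -0.08, -0.46, 0.30 and 0.72, a difference of 0.78. The opposite signs were found at chr1:419408-420347, with 0.12, 0.27, -0.59 and -0.13 (difference -0.56), and at chr8:139016671-139020763, with 0.08, 0.49, -0.31 and -0.20 (difference -0.54). The last does not hold for the B73 peak that overlaps the hybrid peaks, whose contrast was -0.76, the sign of both hybrids. After centring on the list medians the 5 differences were 1.02, 0.29, 0.26, -1.08 and -1.06. At chr8:45932124-45932909 the opposite signs were then lost. Its BM contrast of 0.30 lay below that of the BM medians, 0.66, so centring made it negative, as in both inbreds. None of these differences was tested, since the files hold no replicate values. Such opposite signs occurred at 11 of the 81 gene-free loci in all lists, at 9 of them with the hybrids positive, or 13.6% and 11.1%. Over all 471 loci in 4 lists the shares were 24.4% and 22.9%, so opposite signs were less frequent at gene-free loci than in the background.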

How the results depend on the processing

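No paired analysis was possible because the lists hold no replicate values, so a fit with the replicate as a block could not be made. Of 139 alternative values for 21 results, 110 kept their direction and their side of the threshold, or for counts stayed near the value given, 20 changed direction and 9 moved. For the class comparisons no p could pass the threshold, so there only the direction counted. For the phase shares the threshold was put to the Fisher test, which counts peaks as replicates. A kept direction did not mean a kept size. The difference in the share in all lists went from 7.67 to 0.03 points without the dense regions. That in strength went from -0.38 to -0.03 at a strength of at least 1.5, a cut on the compared value that draws the medians together. Leaving out each list in turn changed the sign of the neighbour share alone among the comparisons of the 2 classes (0.43 points without B73 and 0.38 without BM, from -0.27) and of the hybrid difference at ZT9 (-2.98 points without B73, from 0.10). The neighbour share was -11.1 points at a strength of at least 1.5, and it also changed sign within 50 kb (2.19) and 100 kb (3.19), and the median gap to the nearest peak from -30644 bp to 48190 bp without the dense regions. The change of the gap follows from leaving out closely spaced peaks of the gene-free class alone. At a strength of at least 1.5 the gap at ZT15 was 0.16 and the difference in range 0.17, and at 2 the difference in strength was 0.0257. The range difference was 0.0873 after centring and 0.0698 without the dense regions, where strength by sharing was 0.14. Within 250 kb the difference in listed genes was 0. Centring turned the hybrid differences to -10.7 points at ZT3 and 9.13 at ZT15, and the loci with both hybrids above or below to 6 and 36. The ZT9 difference was -2.72 with a lead of 0.5, -2.90 and -2.11 at strengths of 1.5 and 2, -6.18 without ZT15, and -0.0149 without the dense regions. With a reciprocal overlap of 50%, 3 loci had both hybrids below. Of the 35 overlaps, 12 were left with genes of the own list, and windows of 2 and 5 kb held 42 and 57 downstream peaks. The share of gene-free peaks was 8.51% and 7.88% at strengths of 1.5 and 2, and 11.9% without the dense regions. Except where the alternative itself removes peaks, the cause was not tested. With 4 lists the smallest p is 0.125 (with 3 lists 0.25), so no p over the lists speaks for or against stability.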

Other observations

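Runs of consecutive gene-free peaks along a chromosome, with no assigned peak between them, were looked at after the data were seen. Most of the longest runs lay in the dense regions. The longest run outside them was in Mo17, with 11 gene-free peaks from chr6:7902694 to 20562773, and 10 of these were in no other list. Their strength ran from -1.01 to 1.54 with a median of 0.70, and 5 of them, the only peaks of any list in this state, had a highest log2(ChIP/Input) below 0. In the same interval B73 had 6 peaks, of which 2 were gene-free, BM had 9 with 2, and MB had 7 with 6. The next longest run outside the dense regions was in MB, with 10 gene-free peaks from chr7:51648113 to 67915497 and a strength of 1.01 to 2.38.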
